A study of Mus musculus with 7 samples.

Results

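Cell cycle and DNA replication genes were compared between Bodipy+ microglia of Old and Young mice after stroke. The set is a list of 54 gene symbols, picked by name for their function, with earlier results of these data known, among the 50686 genes in each deposited table. It holds 24 genes that act in the G1/S transition or in S phase, 28 mitotic genes, and Stmn1 and Hmgb2, which are bound to neither phase. All libraries came from male C57BL/6 mice that had received no drug beyond the anesthesia and analgesia of the surgery. Cells were taken on day 4 after transient occlusion of the middle cerebral artery, so Young and Old mice were both ischemic. Young mice were 3 to 4 months old (4 libraries, mice 14C, 18C, 23C and 29C) and Old mice were 21 to 22 months old (3 libraries, mice 2posI, 3posI and 4posI). Cells from the dissociated forebrain were sorted with antibodies to CD11b and CD45 and with Bodipy, a dye that stains neutral lipid, and the Bodipy+ cells were kept. Each library is 1 mouse, made from polyA RNA with a low-input, non-stranded Smart-seq2 protocol.

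A dividing cell copies its DNA once in S phase and separates the copies in mitosis. E2F factors switch on the S phase genes, among them the MCM helicase and the enzymes that make deoxynucleotides. Mitotic genes are held back by the DREAM complex and switched on later by B-Myb (Mybl2) and FoxM1 through the CHR element of their promoters. Here Mybl2 and Foxm1 count as mitotic for the genes they switch on, whatever the phase of their own transcripts. Resting microglia divide rarely, and microglia proliferate in the days after an ischemic lesion.

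The promoters of 6 members are shown because the set falls into these 2 classes. Each is a window of 300 bases, from 250 before to 50 after the transcription start, taken from RefSeq on build GRCm38.p6 and written in the direction of the gene. Capitals mark an E2F word (TTTGGCGC, TTTCGCGC, TTTGCCGC or TTTCCCGC) or a CHR word (TTTGAA or TTCGAA), found on either strand. E2F words on opposite strands can overlap, as in Mcm5 and Mcm6, where 2 of them share their central bases and show as 1 longer run. Mcm6 and Mcm5 carry E2F words, Cdk1 carries both kinds, Cdc20 and Bub1 carry a CHR word, and Mybl2 holds none of these words in this window.
Mcm6 (S phase, chr1:128359656-128359955, minus strand): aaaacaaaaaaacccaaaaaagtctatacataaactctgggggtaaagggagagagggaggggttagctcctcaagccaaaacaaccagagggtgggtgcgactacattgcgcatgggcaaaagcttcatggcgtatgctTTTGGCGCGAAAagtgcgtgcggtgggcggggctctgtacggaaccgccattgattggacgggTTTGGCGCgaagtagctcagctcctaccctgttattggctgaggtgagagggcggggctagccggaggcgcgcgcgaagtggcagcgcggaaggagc
Mcm5 (S phase, chr8:75109259-75109558, plus strand): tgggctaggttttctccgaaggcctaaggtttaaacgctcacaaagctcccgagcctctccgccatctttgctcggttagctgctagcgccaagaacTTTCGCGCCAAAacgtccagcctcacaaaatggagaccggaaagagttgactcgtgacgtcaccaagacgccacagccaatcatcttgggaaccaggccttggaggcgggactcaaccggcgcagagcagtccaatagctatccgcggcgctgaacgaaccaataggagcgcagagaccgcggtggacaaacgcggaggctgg
Cdk1 (mitotic, chr10:69352863-69353162, minus strand): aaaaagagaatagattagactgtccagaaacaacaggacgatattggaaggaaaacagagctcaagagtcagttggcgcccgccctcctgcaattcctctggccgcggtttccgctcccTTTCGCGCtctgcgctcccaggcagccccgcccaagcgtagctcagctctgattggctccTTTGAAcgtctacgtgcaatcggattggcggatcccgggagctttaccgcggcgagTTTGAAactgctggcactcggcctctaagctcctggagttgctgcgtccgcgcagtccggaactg
Cdc20 (mitotic, chr4:118437294-118437593, minus strand): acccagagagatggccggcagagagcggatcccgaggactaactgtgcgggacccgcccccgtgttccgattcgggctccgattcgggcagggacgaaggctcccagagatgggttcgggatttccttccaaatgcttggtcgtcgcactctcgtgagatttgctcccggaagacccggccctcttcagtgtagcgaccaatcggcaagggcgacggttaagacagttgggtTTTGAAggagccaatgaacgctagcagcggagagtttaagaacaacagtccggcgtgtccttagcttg
Bub1 (mitotic, chr2:127831810-127832109, minus strand): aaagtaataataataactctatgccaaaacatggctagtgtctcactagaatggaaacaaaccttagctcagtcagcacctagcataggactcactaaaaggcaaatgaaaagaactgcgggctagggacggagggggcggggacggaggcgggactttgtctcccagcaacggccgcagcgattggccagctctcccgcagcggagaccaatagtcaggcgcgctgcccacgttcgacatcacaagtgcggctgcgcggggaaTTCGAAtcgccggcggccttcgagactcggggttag
Mybl2 (mitotic, chr2:163054385-163054684, plus strand): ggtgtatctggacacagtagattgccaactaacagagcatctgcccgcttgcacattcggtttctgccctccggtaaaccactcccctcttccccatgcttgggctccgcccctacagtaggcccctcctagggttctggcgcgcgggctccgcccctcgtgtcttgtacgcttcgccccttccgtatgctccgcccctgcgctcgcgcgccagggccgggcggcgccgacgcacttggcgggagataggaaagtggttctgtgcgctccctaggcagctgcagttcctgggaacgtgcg
A promoter was found for 43 of the 54 members and for 27025 genes in all. E2F words lay in 8 of 19 S phase promoters (42.1%) and in 1 of 23 mitotic promoters (4.35%), that of Cdk1, against 2.32% of all promoters. CHR words within 50 bases of the start, on either side, lay in 1 of 19 S phase promoters (5.26%) and in 16 of 23 mitotic promoters (69.6%), against 5.29% of all. CHR words anywhere in the window lay in 21.1% of S phase, 73.9% of mitotic and 19.4% of all promoters. The word CCAAT, read on both strands, lay in 63.2% of S phase, 78.3% of mitotic and 37.9% of all promoters. A match describes letters in the window and is not evidence of binding.

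Total expected counts per library were 36574083 to 53002386. The 15 microglial markers had a count in every library, with a summed level of 30870 to 39740 TPM (a level scaled for transcript length and to the same sum in each library) in 6 libraries and 19210 TPM in Old mouse 3posI. That library stood apart. Its 8 monocyte markers summed to 15270 TPM, against 2001 to 5210 TPM in the other 6. Its 6 markers of border-associated macrophages summed to 1423 TPM, against 133 to 441 TPM, mostly from Pf4 (775 TPM) and Ms4a7 (598 TPM). Mrc1, at 19.4 TPM, was near 2posI (18.8 TPM), and Lyve1, at 7.30 TPM, was near 14C (6.76 TPM). Cd163 and Cd209f, at 7.61 and 15.7 TPM, were below 2posI (8.35 and 27.8 TPM). The 13 markers of T and NK cells summed to 1.58 to 5.99 TPM in the 4 Young libraries and 2posI, and to 10.5 TPM in 3posI and 9.47 TPM in 4posI. The main counts and the members of smallest p are therefore given with and without Old mice 3posI and 4posI.

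All 54 members were expressed. Each had more than 10 counts in every library, from 109 to 14454. On the TPM scale, with means over the 7 libraries, Stmn1, which encodes a protein that destabilises microtubules, was highest at 304 TPM. Pcna, the sliding clamp of DNA polymerases, followed at 139 TPM and Hmgb2, a chromatin protein, at 122 TPM. The lowest members were Mybl2 at 3.75 TPM and Pole, the catalytic subunit of polymerase epsilon, at 3.77 TPM. The median over the 53 members that were tested was 19.7 TPM, against 4.64 TPM over all 17559 genes tested. Pola1, a subunit of polymerase alpha, lies on the X chromosome and was left out of the test together with the other X, Y and mitochondrial genes. Summed over the 54 members, the level was 1593 (14C), 1727 (18C), 2341 (23C) and 2114 TPM (29C) in Young mice. In Old mice it was 1755 (2posI), 1194 (3posI) and 2442 TPM (4posI). Both the lowest and the highest of the 7 sums were in Old mice.

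The members moved together from library to library. Levels below are CPM, gene counts brought to a common library size, with TMM factors to keep a few very abundant genes from setting the scale. Of the 53 members tested, 44 had their lowest level in Old mouse 3posI (83.0%, against 20.3% of all genes tested). The highest level was in 23C for 21 members, in 4posI for 22 and in 29C for 10, and in none of the other 4 libraries. Among Young mice, 23C and 29C both lay above 14C and 18C for 49 of 53 members (92.5%), against 19.5% of all genes. The median of this fold was 1.37 over the members and 1.00 over all genes. In Old mice, 4posI was the highest and 3posI the lowest in 49 members each, against 33.6% and 34.5% of all genes. These orders of mice were picked after the members' levels were seen, so the shares are a description and not a test. The median fold of 4posI over 3posI was 1.98 over the members, and 0.995 over all genes tested with a count in both. It was 1.70 over S phase members and 2.15 over mitotic members.

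**Figure D1:**
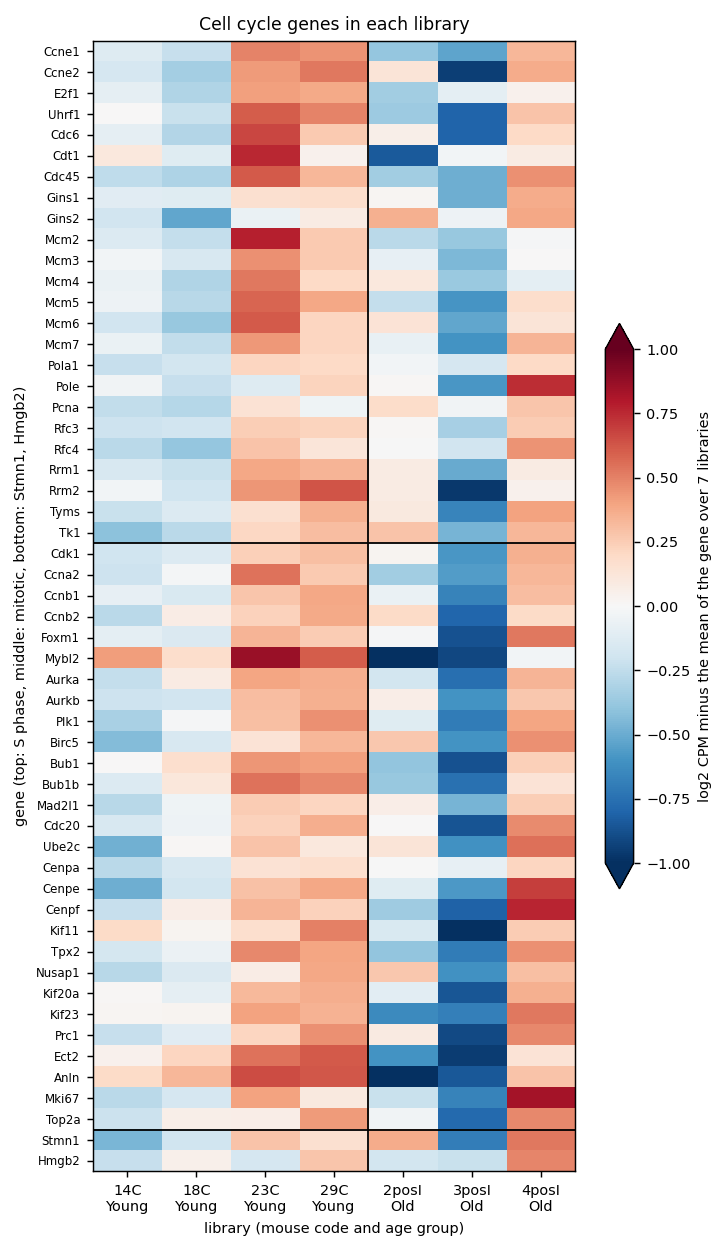
Level of each of the 54 genes (one per line) in each of the 7 libraries (columns), as log2 CPM minus the gene's mean over the libraries, with S phase genes on top, mitotic genes in the middle and Stmn1 and Hmgb2 at the bottom. Columns 23C, 29C and 4posI are mostly red (above the mean), and column 3posI is mostly blue, where 44 of the 53 genes tested had their lowest level.

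Several other measures moved with these differences, and their part in them was not tested. Mouse 3posI had the high monocyte markers, the high Pf4 and Ms4a7 and the low microglial markers given above. Relative to the microglial markers, its members were not the lowest. Mitotic members came to 18.1 (14C), 17.3 (18C), 28.4 (23C) and 22.1 TPM (29C) per 1000 TPM of microglial markers in Young mice, and to 19.5 (2posI), 21.5 (3posI) and 28.4 TPM (4posI) in Old mice. For S phase members the same ratio was 20.3, 16.2, 31.5 and 22.1 in Young mice, and 21.8, 27.0 and 27.1 in Old mice, in the same order. On this ratio 23C and 4posI shared the highest mitotic level, and 3posI stood between the others. For S phase members 23C was highest, with 4posI and 3posI next. Mitotic means were 21.5 ± 5.05 in Young (SD, n = 4) and 23.1 ± 4.69 in Old mice (SD, n = 3). S phase means were 22.5 ± 6.47 and 25.3 ± 3.03. Both were higher in Old mice, unlike the CPM levels, and the ages overlapped. Depth moved in part with the levels. Mice 23C and 29C had the largest total counts, 53002386 and 50659118, and 14C and 18C had 48309150 and 45379786. Old mice 2posI, 3posI and 4posI had 36574083, 42931779 and 46133564. The smallest count was that of 2posI, followed by 3posI, and whether depth had a part in the levels was not tested. Of the 7 markers of neural progenitors and neuroblasts, of which Dcx and Dlx2 were at or near 0 in every library and Nes made most of the sum, the sum was highest in 23C (7.64 TPM) and 4posI (7.01 TPM) and 2.04 to 4.45 TPM elsewhere. Some measures differed between the ages without overlap. Ribosomal RNA genes, nuclear and mitochondrial together, took 4.14 to 4.99% of the counts in Young libraries and 2.21 to 3.37% in Old libraries. The 9 markers of endothelial cells and pericytes summed to 52.4 to 124 TPM in Young and 36.9 to 48.3 TPM in Old libraries, with 1 of them called lower (edgeR). In sorted bulk cells, fewer cycling cells and less RNA per cycling cell cannot be told apart.

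No member was called between Old and Young mice. The test was the quasi-likelihood test of edgeR over all 17559 genes, and a call needed an adjusted p (Benjamini-Hochberg) under 0.05. It called 100 genes higher in Old mice (0.57% of all tested) and 41 lower (0.233%), none of them a member. The smallest adjusted p of a member was that of Mybl2, 0.112 with edgeR. At an unadjusted p under 0.05, 1 member was higher in Old mice, Gins2, where 10.1% of all genes were. At the same threshold 4 members were lower, Mybl2, Ect2, Anln and Bub1b, where 8.79% of all genes were. Without 3posI, 2 of 53 members had an unadjusted p under 0.05 in either direction (edgeR). Without 4posI, 15 of 53 did. The share of all genes in these fits was not counted, so these counts cannot be read as a result about the members. With all libraries, 5 of 53 members and 3326 of 17559 genes had an unadjusted p under 0.05 (edgeR). Limma-voom, with or without sample quality weights, called none of the members. DESeq2 called Mybl2 alone, lower in Old mice, where it called 4.24% of all genes higher and 3.73% lower.

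The fitted log2 fold change, Old minus Young, was below 0 in 40 of the 53 members and above 0 in 13 (24.5%, against 48.8% of all genes). Its median was -0.21 over 23 S phase members, of which 5 were higher in Old mice, and -0.17 over 28 mitotic members, of which 6 were. The median over all genes was -0.014. The balance of signs rested on single Old mice. Without 3posI, 30 of 53 members were higher in Old mice, with medians of -0.027 over S phase and 0.073 over mitotic members. Without 4posI, 2 of 53 were higher, with medians of -0.35 and -0.48. A member's log2 fold change moved by over 1.5 times in 45 of 53 members without 3posI, in 41 without 4posI and in 18 without 2posI. Its sign changed in 17, 11 and 3 members. Many members had values near 0, where a small shift passes this ratio, and the share of all genes was not counted. Across ages the levels overlapped in 53 of 54 members, and no member had every Old library above every Young one, which 8.67% of all genes did. The reverse, each Old library under all Young libraries, held for 1 member, Mybl2, and for 9.07% of all genes.

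**Figure D2:**
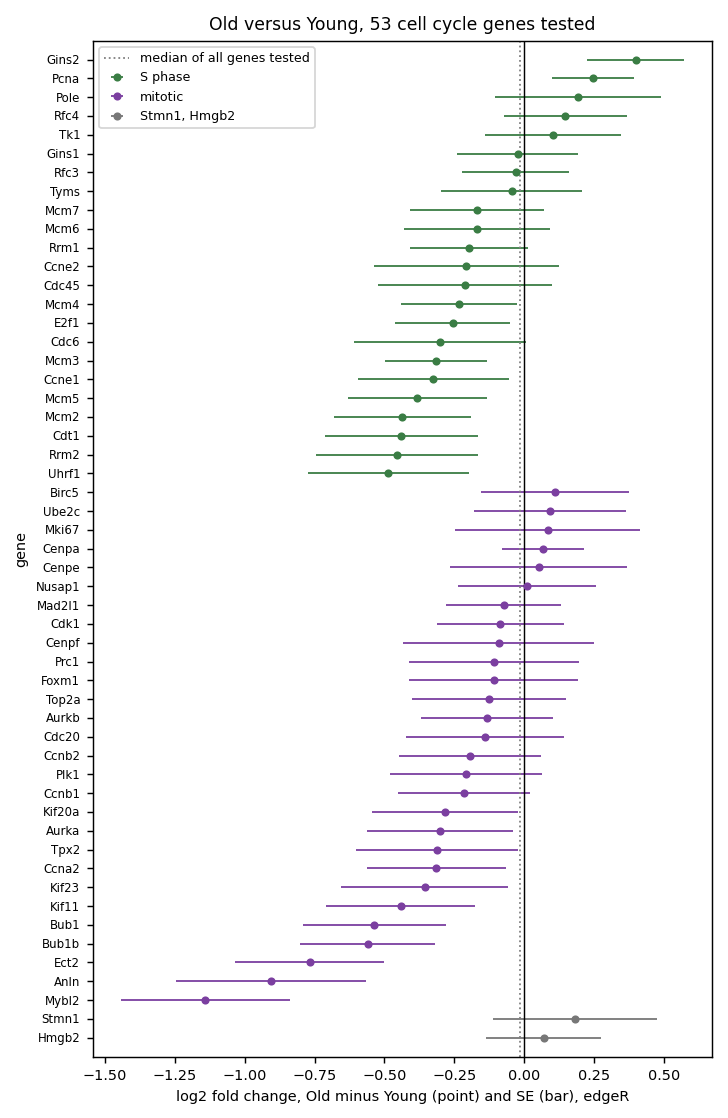
Log2 fold change of the 53 members tested, Old minus Young, from edgeR, with 1 SE to each side, grouped by phase and sorted within each group. The dotted line is the median over all genes tested, -0.014, and 40 of the 53 points lie left of 0, with Mybl2 the lowest at -1.14 and Gins2 the highest at 0.40.

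Mybl2 (chromosome 2, 163054687 to 163084688), which encodes the activator B-Myb, was the member with the clearest difference. Its level was 9.44 (14C), 7.96 (18C), 12.9 (23C) and 10.8 CPM (29C) in Young mice. In Old mice it was 3.25 (2posI), 3.76 (3posI) and 6.93 CPM (4posI). The 3 Old libraries all had less than any Young library, with 4posI nearest to them. The log2 fold change was -1.14 (SE 0.30, edgeR adjusted p = 0.112), and with each library left out in turn it stayed between -1.55 and -0.94. With DESeq2, which called 1399 genes in all against 141 with edgeR, it was -1.14 (adjusted p = 0.00876). For Foxm1, the other mitotic activator of the set, Young mice had 14.4 ± 2.42 CPM (SD, n = 4) and Old mice 13.4 ± 6.03 CPM (SD, n = 3), which the fit put at a log2 fold change of -0.11 (SE 0.30).

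The next members by p were genes of cytokinesis and the spindle checkpoint. Anln (chromosome 9, 22332012 to 22389188) encodes anillin, a scaffold of the contractile ring. Its level was 18.2, 20.02, 24.99 and 24.5 CPM in Young mice 14C, 18C, 23C and 29C, and 6.76, 8.82 and 19.4 CPM in Old mice 2posI, 3posI and 4posI. Mice 2posI and 3posI lay well below all Young mice, and 4posI lay among them. The log2 fold change was -0.91 (SE 0.34, edgeR adjusted p = 0.204). Without 4posI it was -1.49, and Anln then passed the threshold (edgeR adjusted p = 0.0459), as the single member that did so in any fit with 1 library left out. That fit called 0.242% of all genes lower in Old mice. Ect2 (chromosome 3, 27097222 to 27153878), the exchange factor that activates RhoA at the cleavage furrow, had 20.1, 22.6, 28.4 and 29.8 CPM in Young mice and 12.9, 10.1 and 21.4 CPM in Old mice. Again 2posI and 3posI were below every Young mouse and 4posI overlapped with them. Its log2 fold change was -0.77 (SE 0.27, edgeR adjusted p = 0.178), or -0.55 without 3posI and -1.14 without 4posI. Bub1b (chromosome 2, 118598211 to 118641591) encodes BubR1 of the spindle checkpoint. It had 27.6, 32.9, 44.1 and 42.2 CPM in Young mice and 23.3, 18.0 and 33.3 CPM in Old mice, a log2 fold change of -0.56 (SE 0.24, edgeR adjusted p = 0.257), or -0.37 without 3posI and -0.83 without 4posI. For the checkpoint kinase Bub1, Young mice had 21.2 ± 3.00 CPM (SD, n = 4) and Old mice 14.6 ± 5.69 CPM (SD, n = 3), which the fit put at a log2 fold change of -0.54 (SE 0.26), or -0.31 and -0.89 without the same mice. The third checkpoint gene, Mad2l1, had one of -0.07 (SE 0.20).

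**Figure D3:**
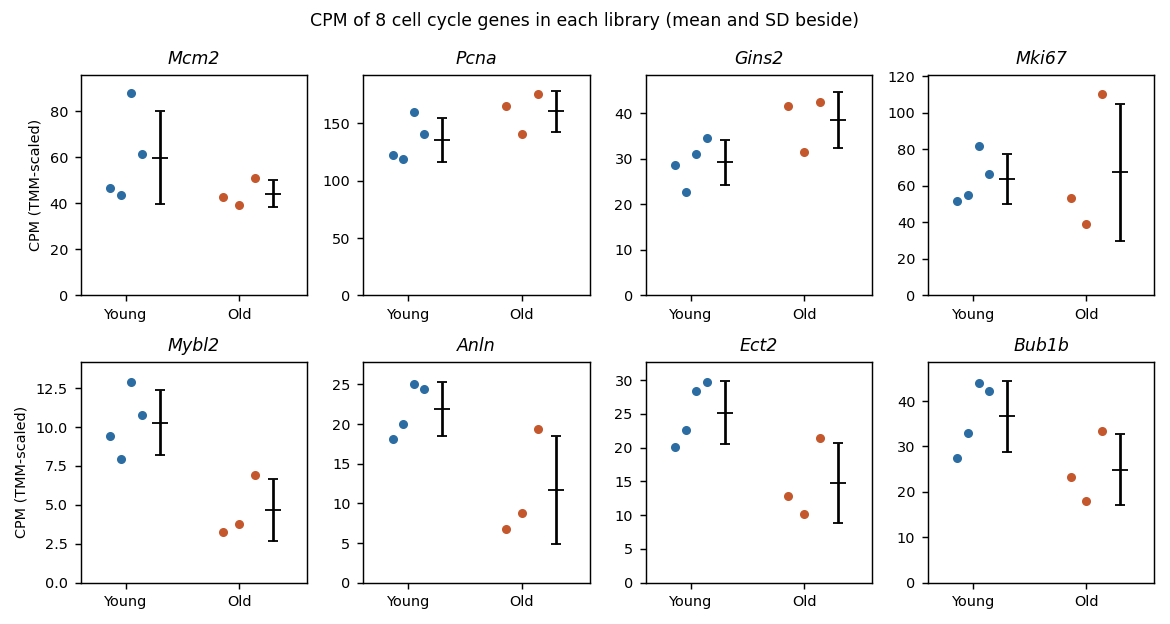
CPM of 8 members in each library (points, from left to right 14C, 18C, 23C and 29C for Young and 2posI, 3posI and 4posI for Old), with the mean and SD of each age beside them (n = 4 and n = 3), on linear axes that start at 0. The points of the ages are apart in Mybl2 alone; in Anln, Ect2 and Bub1b the Old mouse 4posI overlaps the Young mice, and Gins2 and Pcna have higher means in Old mice.

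Other mitotic members differed little between ages relative to their spread. Mki67 (chromosome 7, 135689784 to 135716361), which encodes the proliferation antigen Ki-67, had 51.5, 55.0, 81.7 and 66.2 CPM in Young mice 14C, 18C, 23C and 29C, and 53.2, 39.0 and 110 CPM in Old mice 2posI, 3posI and 4posI. The Old mice held both the lowest and the highest level. Its log2 fold change was 0.08 (SE 0.33), or -0.47 without 4posI, 0.36 without 3posI and -0.03 with an effective-length offset. Top2a (chromosome 11, 98992943 to 99024189), the topoisomerase that untangles sister chromatids, had 75.6, 91.7, 92.4 and 118 CPM in Young mice and 85.8, 51.3 and 123 CPM in Old mice. Here too 3posI was lowest and 4posI highest, and the log2 fold change was -0.13 (SE 0.27), or 0.13 with the offset. Of Cdk1, the kinase that drives entry into mitosis, Young mice had 51.7 ± 9.12 CPM (SD, n = 4) and Old mice 48.7 ± 15.2 CPM (SD, n = 3), which the fit put at a log2 fold change of -0.09 (SE 0.23). Its cyclins had log2 fold changes of -0.32 (Ccna2, SE 0.25) and -0.21 (Ccnb1, SE 0.24). Birc5, which encodes survivin of the chromosomal passenger complex, had one of 0.11 (SE 0.26), and the mitotic kinases Aurka and Plk1 had -0.30 (SE 0.26) and -0.21 (SE 0.27). For the anaphase-promoting complex, its activator Cdc20 had -0.14 (SE 0.28) and its ubiquitin-conjugating enzyme Ube2c 0.09 (SE 0.27). Cenpa, the histone that marks centromeres, and Cenpf, of the outer kinetochore, had 0.07 (SE 0.15) and -0.09 (SE 0.34). Among spindle genes, the motor Kif11 had -0.44 (SE 0.27) and Tpx2, which targets Aurora A to the spindle, -0.31 (SE 0.29). Prc1, which bundles microtubules of the midzone, had -0.11 (SE 0.30). All 5 cytokinesis members had a fitted fold change below 0, from -0.91 in Anln to -0.11 in Prc1, which was 0.19 without 3posI. Without 3posI, and then without 4posI, the values were -0.14 and -0.63 for Ccna2, -0.07 and -0.62 for Aurka, -0.17 and -0.75 for Kif11, and -0.09 and -0.73 for Tpx2. The remaining mitotic members ran from -0.36 in Kif23, a motor of the midzone, to 0.05 in Cenpe, a kinetochore motor.

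In S phase, the 6 subunits of the MCM helicase all had fitted log2 fold changes below 0, from -0.44 in Mcm2 to -0.17 in Mcm7, and 0 of the 6 passed the threshold or an unadjusted p under 0.05 (edgeR). Mcm6 and Mcm7 came out just above 0, at 0.04 at most, when 3posI was left out, and Mcm6 also when 23C was. Mcm2 (chromosome 6, 88883474 to 88898780) had 46.7, 43.4, 88.0 and 61.3 CPM in Young mice 14C, 18C, 23C and 29C, and 42.6, 39.3 and 50.9 CPM in Old mice 2posI, 3posI and 4posI. The Old mice lay at or near the lower Young mice, and 4posI, the highest Old mouse for 27 of 28 mitotic members, stayed below 23C and 29C. The log2 fold change was -0.44 (SE 0.24, edgeR adjusted p = 0.371), and -0.19 at its smallest when 1 library was left out. For Mcm3, Young mice had 131 ± 25.5 CPM (SD, n = 4) and Old mice 106 ± 16.7 CPM (SD, n = 3), which the fit put at a log2 fold change of -0.32 (SE 0.18).

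Of the 5 S phase members with a fitted fold change above 0, Gins2, Pcna, Pole and Rfc4 act at the replication fork and Tk1 supplies it with thymidine nucleotides. Gins2 (chromosome 8, 120578633 to 120589304), a subunit of the GINS complex of the replicative helicase, had 28.6, 22.7, 31.2 and 34.5 CPM in Young mice and 41.6, 31.5 and 42.5 CPM in Old mice. Mice 2posI and 4posI lay above all Young mice, and 3posI lay between them. Its log2 fold change was 0.40 (SE 0.17, edgeR adjusted p = 0.259). On the TPM scale Young mice had 34.3 ± 8.78 TPM (SD, n = 4) and Old mice 34.8 ± 12.2 TPM (SD, n = 3), since the deposited effective length of this gene averaged 1208 bases in Young and 1533 in Old libraries. Pcna (chromosome 2, 132249162 to 132253314) had 122, 119, 160 and 141 CPM in Young mice and 165, 141 and 176 CPM in Old mice, with overlap between the ages. Its log2 fold change was 0.25 (SE 0.15, edgeR adjusted p = 0.399). Rfc4, of the loader that opens the clamp, had one of 0.15 (SE 0.22). Among the genes that act before or at origin firing, Cdt1, which loads the helicase, had -0.44 (SE 0.27), Ccne1 and Ccne2, the E-type cyclins, had -0.33 (SE 0.27) and -0.21 (SE 0.33), and E2f1 had -0.26 (SE 0.20). Uhrf1, which maintains DNA methylation at the fork, had -0.49 (SE 0.29). For nucleotide synthesis, the ribonucleotide reductase subunits Rrm2 and Rrm1 had -0.46 (SE 0.29) and -0.20 (SE 0.21), and thymidine kinase, Tk1, had 0.10 (SE 0.24). Without 3posI, and then without 4posI, the values were -0.17 and -0.64 for Ccne1, -0.27 and -0.83 for Uhrf1, -0.19 and -0.60 for Rrm2, -0.03 and -0.29 for Rrm1, and -0.19 and -0.41 for Mcm3. Without 23C they were -0.22 for Cdt1 and -0.19 for Mcm2, and without 2posI -0.21 for Cdt1. The remaining S phase members outside the helicase ran from -0.30 in Cdc6, another loader of the helicase, to 0.19 in Pole. Rrm2 varied by 3.02-fold from its highest library (29C) to its lowest (3posI).

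Stmn1 and Hmgb2 were highest in 4posI, and Stmn1 alone of the pair was lowest in 3posI. Stmn1 had 158, 189, 264 and 243 CPM in Young mice and 280, 135 and 312 CPM in Old mice, a log2 fold change of 0.18 (SE 0.29). Hmgb2 had 77.7, 94.9, 81.1 and 111 CPM in Young mice and 80.3, 78.3 and 128 CPM in Old mice, with a value of 0.07 (SE 0.21). The ages overlapped in both genes, and Hmgb2 was lower in 23C than in 18C. Pola1, with its chromosome kept in the fit, had a log2 fold change of -0.006.

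S phase and mitotic members were then set against each other within each library. The mean log2 CPM of the 23 S phase members was 4.87 (14C), 4.74 (18C), 5.40 (23C) and 5.28 (29C) in Young mice, and 4.94 (2posI), 4.53 (3posI) and 5.25 (4posI) in Old mice. For the 28 mitotic members it was 4.78, 4.92, 5.28 and 5.31 in Young mice, and 4.75, 4.22 and 5.32 in Old mice. Both phases were lowest in 3posI, and the highest library was 23C for S phase and 4posI for mitosis. The mitotic minus S phase difference was -0.087, 0.18, -0.12 and 0.025 in Young mice, and -0.19, -0.31 and 0.070 in Old mice. The 2 lowest differences belonged to 2posI and 3posI, and 4posI lay within the Young range. Young mice had a mean of -0.00075 ± 0.14 (SD, n = 4) and Old mice one of -0.14 ± 0.19 (SD, n = 3), so the ages were apart by less than the spread within Old mice. Old minus Young was -0.14 with all libraries, -0.061 without 3posI and -0.25 without 4posI. The medians of the fitted fold changes gave the other order with all libraries (-0.21 for S phase and -0.17 for mitosis) and without 3posI, and the same order without 4posI. The ratio of Mki67 to Mcm2 in CPM was 1.10, 1.27, 0.93 and 1.08 in Young mice, and 1.25, 0.99 and 2.16 in Old mice. It was thus high in 4posI alone, where Mki67 was at its highest level and Mcm2 was not. The ratio of Top2a to Mcm2 was 1.6, 2.1, 1.0 and 1.9 in Young mice, and 2.0, 1.3 and 2.4 in Old mice. There 4posI was highest but not set apart from the other mice.

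**Figure D4:**
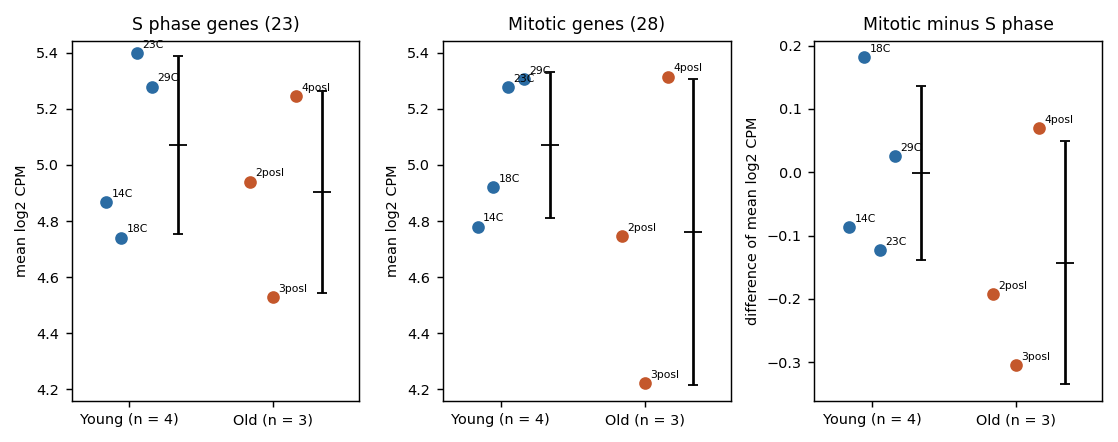
Mean log2 CPM of the 23 S phase members (left) and the 28 mitotic members (middle) in each library, and the mitotic minus S phase difference (right), with the mean and SD of each age beside the points (n = 4 Young, n = 3 Old). The ages overlap in all 3 panels, with 3posI lowest in each.

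Longer members tended to have lower fold changes. Across the 53 members, the log2 fold change and the log2 of the mean effective length had a Pearson r of -0.43 and a Spearman rho of -0.55, against -0.019 and -0.071 across all genes. By phase, r was -0.585 and rho -0.54 over 23 S phase members. Over 28 mitotic members the trend was weaker, with -0.27 and -0.39. Genes are not independent replicates, and all points share the same 7 libraries, so this is a description. The 13 members longer than 3000 bases, 3 of S phase and 10 mitotic, had a median log2 fold change of -0.44, and 11 of them were lower in Old mice. The 40 shorter members had a median of -0.14, and 29 of them were lower. Mki67 and Cenpe, the longest members at 9673 and 7681 bases, had values just above 0 and did not follow the trend. Among related genes outside the set, described next, r was -0.43 over 45 S phase genes and -0.49 over 55 mitotic genes.

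**Figure D5:**
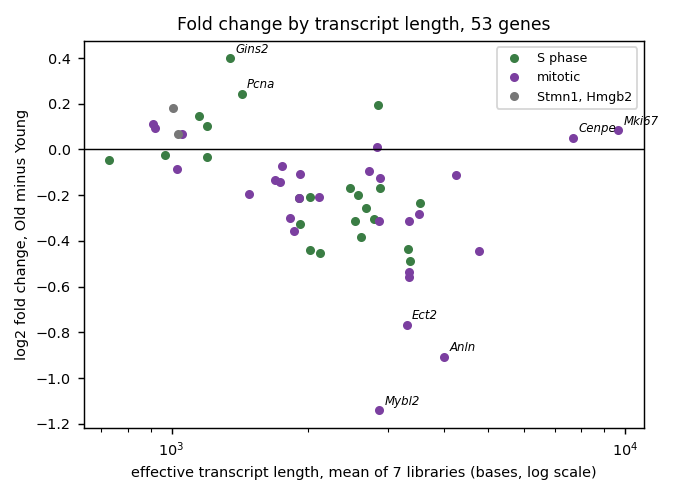
Log2 fold change, Old minus Young (edgeR), against the mean effective transcript length over the 7 libraries in bases (log axis) for the 53 members tested. Most members longer than 3000 bases lie below 0 (11 of 13), with Mki67 and Cenpe the exceptions at the far right.

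Related cell cycle genes outside the set showed a like library pattern. Among 45 other S phase genes, 15 were higher and 30 lower in Old mice (median log2 fold change -0.11). Among 55 other mitotic genes, 10 were higher and 45 lower, with a median of -0.22. None of these 100 genes was called by edgeR, while 5 S phase and 2 mitotic genes were lower at an unadjusted p under 0.05 and 0 were higher, where 8.79% and 10.1% of all genes were. DESeq2 called 1 of them, Depdc1a, lower in Old mice, and limma-voom 0. In 23C and 29C, 38 of the 45 and 43 of the 55 lay above both other Young mice, and in 4posI, 33 and 51 had their highest level among Old mice. The smallest p among S phase genes belonged to the kinase Cdc7, which fires origins, with a log2 fold change of -0.82 (SE 0.28), to the polymerase delta subunit Pold1, with -0.68 (SE 0.24), and to the helicase Blm, with -0.53 (SE 0.19). Among mitotic genes it belonged to Depdc1a, with -0.92 (SE 0.30), to the Cenpa chaperone Hjurp, with -0.60 (SE 0.25), and to Iqgap3, with -0.53 (SE 0.24).

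A further list held 30 G1 cyclins and kinases, inhibitors, pocket proteins and E2F factors. In these genes the library pattern of the members was weaker, with 15 of 30 above both other Young mice in 23C and 29C and 15 of 30 lowest among Old mice in 3posI. Of the 30, 13 were higher and 17 lower in Old mice, and edgeR called 0, with 2 higher and 2 lower at an unadjusted p under 0.05. DESeq2 called 3 of the 30, Cdkn1a and Ccnd2 higher and Cdk2 lower in Old mice, and limma-voom 0. These counts are near the shares of all genes, 10.1% higher and 8.79% lower by the first measure and 4.24% and 3.73% by DESeq2. Cdk2, the kinase that partners cyclins E and A, had 55.1, 54.7, 60.6 and 57.7 CPM in Young mice, and 32.6, 37.8 and 43.5 CPM in Old mice 2posI, 3posI and 4posI. All Old mice lay below all Young mice, and the Young mice were close together. The log2 fold change was -0.59 (SE 0.13, edgeR adjusted p = 0.0733). Cdkn1a, which encodes the Cdk inhibitor p21, had 337, 260, 334 and 381 CPM in Young mice and 417, 642 and 519 CPM in Old mice, all above the Young mice. Its log2 fold change was 0.68 (SE 0.19, edgeR adjusted p = 0.123). Ccnd2, a D-type cyclin of G1, had 2.79, 2.48, 4.43 and 2.41 CPM in Young mice and 4.56, 13.1 and 5.44 CPM in Old mice. The ages did not overlap, with 2posI barely above 23C and 3posI far above the rest, and the log2 fold change was 1.35 (SE 0.40, edgeR adjusted p = 0.137), or 0.72 without 3posI.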

How the data were processed

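Bodipy+ microglia of 4 Young and 3 Old ischemic mice were profiled by RNA-seq. The authors trimmed reads with skewer, after quality control with FastQC 0.11.5, mapped them to GRCm38 with STAR and estimated expected counts and TPM with RSEM on GENCODE m15. No version of STAR or RSEM is stated in the sources used here. The deposited expected counts are not normalized, the deposited TPM are scaled within each library, and the authors also deposited an effective length, in bases, for each gene and library. FPKM were not used.

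Expected counts were rounded. Genes needed more than 10 counts in at least 1 library, and chromosomes X, Y and M were left out, as in the study's methods, which left 17559 genes. In R 4.3.3, TMM factors and the quasi-likelihood test came from edgeR 4.0.16, with age as the single term and Benjamini-Hochberg adjustment over all genes tested. The study's limma-voom (limma 3.58.1) and DESeq2 1.42.0 were alternatives, since the deposited values are counts. Other alternatives were RLE and upper-quartile factors, an effective-length offset, TPM on a log2 scale, other filters and each library left out. DESeq2 gave no adjusted p for 2128 genes, which were not counted as called. Log2 CPM had a prior count of 1. The script was tested on simulated counts.

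The members and gene lists were chosen with earlier results of these data known. Genes were named by a rule: in each role the 2 members with the smallest p and the one with the highest TPM, always Mki67, Top2a, Pcna and Mcm2, and, in each related list, the 3 genes of smallest p. Other members are given by counts and ranges, apart from those named at an extreme of a range, which were chosen after their values were seen. Gene coordinates are from GENCODE vM21, which matched 50462 of 50686 identifiers. Expected counts were whole in every library, within 0.001, for 24 members and fractional in all 7 libraries for 13, so for these RSEM shared some reads with other loci. Total expected counts were 36574083 to 53002386 per library, and the biological coefficient of variation was 37.2%. Libraries of 1 age differed by far more than sampling noise, at 61.1 to 362 units of chi-square per gene, so none was counted as a repeat. Nothing in the labels pairs mice across ages, and the smallest exact two-sided permutation p for 3 against 4 is 0.0286.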

Additional observations from a re-analysis of the deposited data

How the results depend on the processing

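With 3 against 4 mice, 1 library could decide a sign, and the cause of each change was not tested. Genes called numbered 141 with edgeR (70.9% higher in Old mice), 1399 with DESeq2 (53.2%), 213 with the effective-length offset (61.5%), 318 with limma-voom and quality weights (63.8%), 288 without a filter (54.5%), 71 and 67 on log2(TPM + 0.1) and log2(TPM + 0.5) (47.9% and 47.8%), where the median of all genes moved to -0.13 and -0.091, and 1 to 159 with a library left out. Members called numbered 0, or 1 with DESeq2, and 0 to 1 with a library left out. The mitotic minus S phase level, a difference of means, was below 0 in each setting it was computed in, but the medians of the fitted fold changes put the phases in either order. The other settings tried called 0 members.

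Named members below 0 in the test changed sign with quality weights, to 0.033 (Ccne2), 0.029 (Cdc20), 0.088 (Cdk1), 0.06 (Cenpf), 0.053 (Foxm1), 0.127 (Mad2l1), 0.037 (Plk1), 0.095 (Prc1) and 0.038 (Top2a), and 29 of 53 members were then higher in Old mice. On log2(TPM + 0.1) and log2(TPM + 0.5), Birc5 was at -0.003 in both, Cenpa at -0.021 in both, Gins2 at -0.008 and -0.007, Hmgb2 at -0.158 and -0.157, Mki67 at -0.215 and -0.2, and Ube2c at -0.047 and -0.046. The effective-length offset gave -0.021 for Hmgb2, -0.029 for Mki67 and 0.125 for Top2a, and limma-voom gave -0.032 for Mki67.

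With each library left out, the log2 fold change ran from -0.102 to 0.367 (Birc5), -0.469 to 0.008 (Ccnb1), -0.474 to 0.094 (Ccne2), -0.481 to 0.146 (Cdc20), -0.32 to 0.132 (Cdk1), -0.026 to 0.135 (Cenpa), -0.684 to 0.194 (Cenpf), -0.486 to 0.183 (Foxm1), -0.204 to 0.195 (Hmgb2), -0.233 to 0.107 (Mad2l1), -0.469 to 0.36 (Mki67), -0.519 to 0.028 (Plk1), -0.43 to 0.194 (Prc1), -0.062 to 0.275 (Rfc4), -0.047 to 0.471 (Stmn1), -0.035 to 0.32 (Tk1), -0.466 to 0.142 (Top2a) and -0.205 to 0.348 (Ube2c). No paired analysis was possible because the labels give each mouse a code of its own and nothing that links Young to Old mice. Each member had at least 109 counts in every library, and no test of power was made.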
